A study of Mus musculus with 7 samples.

Results

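Macrophages taken from regenerating sciatic nerve 28 days after repair were compared with those taken at day 14, the late step of a time course that began at day 5. The comparison was set by the time point that the deposited values give for each library, and it covers 4 of the 7 libraries of the time course, 2 from day 14 and 2 from day 28. The mice were BALB/cJ, an inbred wild-type strain. The left sciatic nerve was cut and repaired inside a conduit, and cells of the regenerative bridge that grew there were sorted as Lin-F4/80+CD14+CD11b+CD16/32+, which keeps myeloid cells with macrophage surface markers and drops cells with markers of other lineages. Both days share strain, operation and sort, and differ in the time since repair. The labels call the libraries independent biological replicates. It was not established whether each library holds cells of 1 mouse or of several pooled, and age and sex are not given for these libraries. The p-values below rest on a spread per gene estimated from all 7 libraries, the 3 of day 5 included, and moderated across genes. They do not measure the spread of the 4 compared libraries alone. Each library holds the number of RNASeq fragments assigned to each of 23361 genes, in all 18027190 and 20822892 fragments at day 14 and 35247116 and 18101976 fragments at day 28. FPKM, the unit used for levels, divides fragments by transcript length and library size, so it allows levels of different genes to be compared.

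Macrophages in a cut nerve come largely from blood monocytes that enter the lesion, clear myelin and axon debris, and release factors that act on Schwann cells, fibroblasts and vessels. As a lesion ages they are known to pass from an inflammatory state to one marked by phagocytosis, lipid handling and matrix remodelling. The comparison asks which genes and functions still differed after the second week, and which had settled by then.

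The libraries of day 14 were unlike, and this bears on every result. Among 7665 genes, tested or not, with a mean of at least 5 FPKM over the 4 libraries, 249 (3.25%) were at least 2-fold apart in FPKM + 1 between both day 14 libraries, against 80 (1.04%) between both day 28 libraries. Pairs of day 5 libraries were closer (0.53% to 0.63%), and they too enter the spread behind the p-values and intervals. Day 14 replicate 2 was nearer to each day 28 library (1.76% and 1.70% of genes at least 2-fold apart) than to day 14 replicate 1. By the median absolute log2 difference this held for day 28 replicate 2 (0.153, against 0.190 between the day 14 libraries) and not for day 28 replicate 1 (0.203). Replicate 1, in turn, was 2.19% to 2.47% apart from the day 5 libraries and 5.74% and 4.02% apart from those of day 28. Day 14 replicate 1 thus lay toward day 5 and replicate 2 toward day 28 by the share of genes 2-fold apart. Values are therefore given for each library. Medians of function lists, where printed, are also given without either day 14 library or as a range. The range covers the fits that leave out 1 of the 4 libraries. Where a pair of values stands against another pair, these are replicates 1 and 2 of day 14 against replicates 1 and 2 of day 28.

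**Figure D1:**
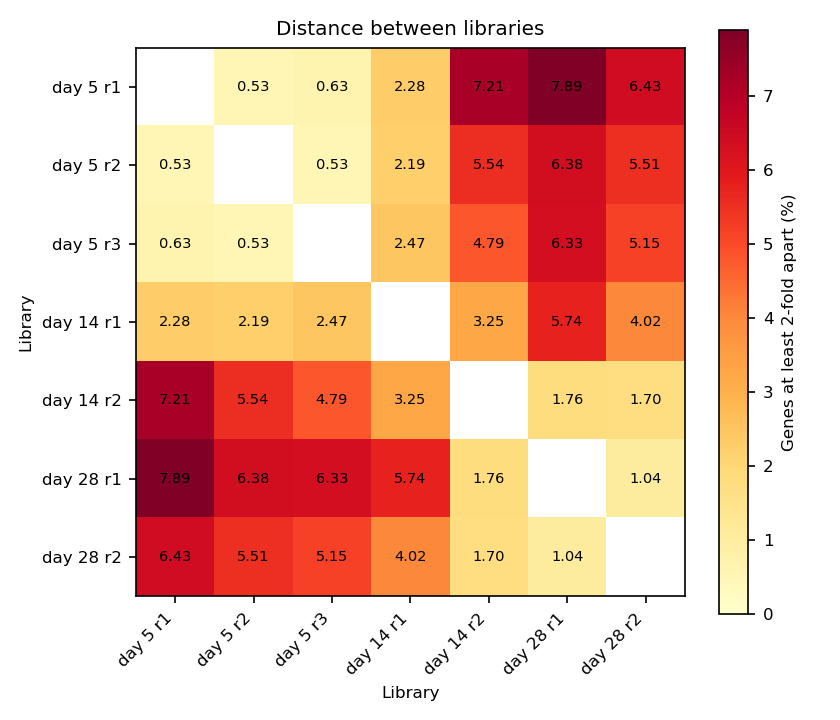
Share of genes at least 2-fold apart for each pair of the 7 libraries, in percent of 7665 genes with a mean of at least 5 FPKM over the libraries of days 14 and 28; r stands for replicate. The pair of day 14 libraries (3.25%) lies further apart than day 14 replicate 2 does from either day 28 library (1.76% and 1.70%).

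Few genes passed the test between days 14 and 28. edgeR's quasi-likelihood test, adjusted by Benjamini-Hochberg over 12858 genes, called 8 genes differentially expressed (DE) at an adjusted p under 0.05, which is 0.0622% of those tested, 4 higher and 4 lower at day 28. Higher were Il7r, Stap1, Chst11 and Igf2bp2, and lower were G0s2, Treml2, Trpm2 and Fcrl5. Of these, 6 were also stringent DE genes, with a 2-fold difference between mean FPKM and a mean of at least 5 FPKM on either day. Igf2bp2 (mean 3.65 FPKM at day 14 and 9.53 FPKM at day 28) and Treml2 reached that level only on the day when they were higher. Without adjustment, 1570 genes had a p under 0.05, 678 higher and 892 lower. Both day 28 libraries lay above both day 14 libraries for 2479 genes (19.3%) and below them for 2535 genes (19.7%), which is the background against which gene groups are read below. At the other end, the 95% interval of the log2 fold change lay within 2-fold in either direction for 8589 genes (66.8%), called stable here. The median log2 fold change over all genes tested was 0.0093, near 0 because library scaling centres it there.

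The number of calls depended on the libraries and on the test. All 8 genes kept their direction in every alternative that tested them. edgeR called 33 genes without day 14 replicate 1 and 629 without day 14 replicate 2, both times with all 8 among them, but 1 without day 28 replicate 1 (S100a9, a neutrophil gene named here after its values were seen) and 36 without day 28 replicate 2, of which 4 were among the 8. DESeq2 called 332 of the same 12858 genes, 102 higher and 230 lower, all 8 included, which is the background for its calls in gene groups below. With limma on log2 FPKM none was called (1665 and 1570 genes at an unadjusted p under 0.05 with pseudocounts of 1 and 0.1). No gene was called by edgeR when any of the 3 day 5 libraries, which help to set the spread, was left out (1251 to 1355 genes at an unadjusted p under 0.05) or when only the 4 libraries were fitted (1009 genes). The 8 genes are thus those with the smallest spread for their change, and not a full account of the late step. Where no tool is named below, called means called by edgeR with all 7 libraries.

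**Figure D2:**
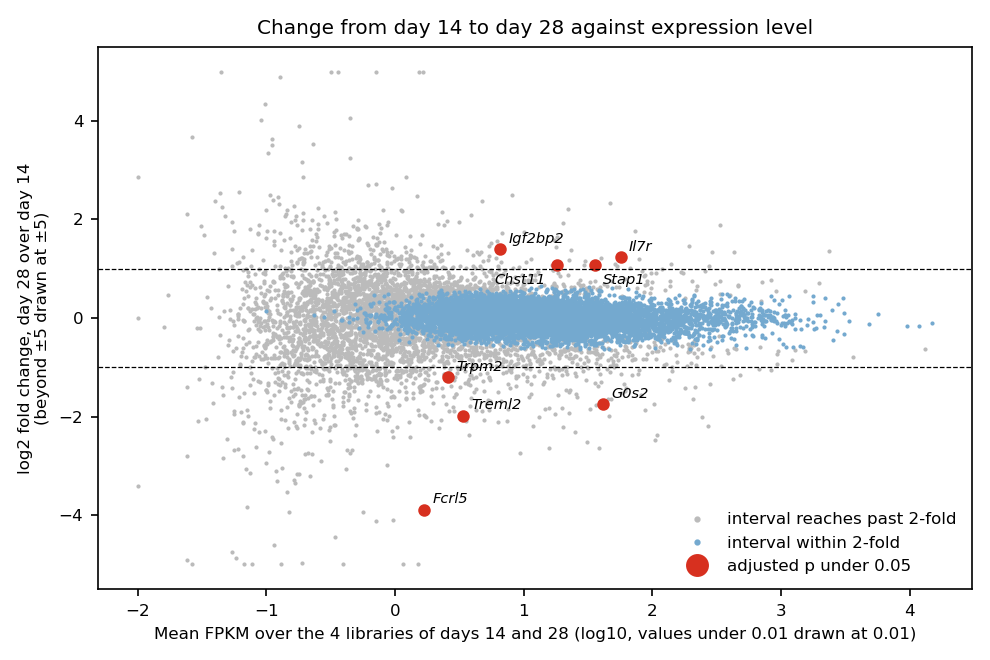
Log2 fold change from day 14 to day 28 (vertical) against mean FPKM over the 4 libraries (horizontal, log10) for the 12858 genes tested. Red points are the 8 genes with an adjusted p under 0.05, blue points the 8589 genes whose 95% interval lies within 2-fold (dashed lines), which are mostly genes of medium and high level.

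Of the genes that rose, Il7r had the highest level. It encodes the receptor chain that binds interleukin-7 together with the common gamma chain, and thymic stromal lymphopoietin together with Crlf2. Its expression was 37.9 and 30.1 FPKM at day 14 and 87.8 and 71.8 FPKM at day 28, so both day 28 libraries were above both of day 14. Il7r (GRCm38 chr15:9505788-9530176, minus strand) rose by a log2 fold change of 1.24 (SE 0.16, 95% interval 0.88 to 1.59, adjusted p = 0.0387, edgeR's quasi-likelihood test, Benjamini-Hochberg adjusted). At day 5 it had stood at 46.0, 48.6 and 42.0 FPKM, between the levels of the later days. Stap1, which encodes an adaptor protein with an SH2 domain that docks on activated tyrosine kinases, was expressed at 23.6 and 22.4 FPKM at day 14 and 52.3 and 44.0 FPKM at day 28. It rose by 1.07 on the log2 scale (SE 0.14, interval 0.76 to 1.38, adjusted p = 0.0387, same edgeR test and adjustment; chr5:86071746-86106125, plus strand), from a day 14 level close to the 28.5, 26.8 and 25.4 FPKM of day 5. The difference in Stap1 thus lay in the last interval. Neither gene was called without day 28 replicate 1 (log2 fold changes 1.08 and 0.93, adjusted p = 0.224 and 0.224, same edgeR test) or without any of the day 5 libraries (adjusted p from 0.0703 to 0.1002, same test).

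Chst11, a sulfotransferase that adds 4-O-sulfate to chondroitin, was expressed at 11.2 and 12.4 FPKM at day 14 and 24.1 and 25.4 FPKM at day 28. Its log2 fold change was 1.07 (SE 0.13, interval 0.77 to 1.37, adjusted p = 0.0344, edgeR's quasi-likelihood test, Benjamini-Hochberg adjusted; chr10:82985498-83195900, plus strand). Day 5 levels were lower still, 7.77, 8.59 and 6.95 FPKM, so its 7 libraries stood in the order of the days without overlap. Igf2bp2 encodes an RNA-binding protein that associates with many mRNAs. It was expressed at 4.09 and 3.20 FPKM at day 14 and 10.1 and 9.003 FPKM at day 28, a rise of 1.40 (SE 0.15, interval 1.05 to 1.74, adjusted p = 0.0344, same edgeR test and adjustment; chr16:22059009-22163299, minus strand). At day 5 its level was 7.82, 8.05 and 8.34 FPKM, so the day 14 libraries were the low point of the series. Between days 5 and 28 Igf2bp2 was not called (adjusted p = 0.222, edgeR with Benjamini-Hochberg adjustment). Without day 28 replicate 1 the values were 1.10 for Chst11 and 1.30 for Igf2bp2, not called (adjusted p = 0.183 and 0.145, same test), nor were they without a day 5 library (adjusted p from 0.0669 to 0.0766), and Chst11 was not without day 28 replicate 2 (1.03, adjusted p = 0.0641).

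Of the genes that fell, G0s2 was the most abundant. It encodes an inhibitor of Pnpla2, the lipase that starts the breakdown of stored triglyceride. G0s2 was expressed at 60.1 and 68.5 FPKM at day 14 and 22.2 and 15.8 FPKM at day 28 and fell by 1.74 on the log2 scale (SE 0.21, interval -2.22 to -1.27, adjusted p = 0.0344, edgeR's quasi-likelihood test, Benjamini-Hochberg adjusted; chr1:193272161-193273217, minus strand). Its day 5 level of 18.4, 23.6 and 25.5 FPKM was near that of day 28, so day 14 was a peak, and days 5 and 28 were not told apart (adjusted p = 0.485, same test). Treml2, a receptor of the TREM family, was expressed at 6.58 and 4.25 FPKM at day 14 and 1.56 and 1.13 FPKM at day 28. It fell by 1.98 (SE 0.23, interval -2.50 to -1.46, adjusted p = 0.0344, same edgeR test and adjustment; chr17:48299498-48312533, plus strand) from a day 14 level in which replicate 1 stood close to the 6.51, 6.18 and 5.93 FPKM of day 5. With a day 28 library left out, neither was called: G0s2 had -2.03 without day 28 replicate 1 and -1.54 without replicate 2 (adjusted p = 0.121 and 0.0667, same test), and Treml2 -2.25 and -1.79 (adjusted p = 0.143 and 0.0661). Without a day 5 library their adjusted p ran from 0.0669 to 0.0793.

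Trpm2 encodes a calcium-permeable channel that opens with oxidative stress and ADP-ribose. Its expression was low, 3.86 and 3.40 FPKM at day 14 and 1.55 and 1.60 FPKM at day 28, and it fell by 1.20 (SE 0.15, interval -1.53 to -0.87, adjusted p = 0.0344, edgeR's quasi-likelihood test, Benjamini-Hochberg adjusted; chr10:77907722-77970563, minus strand). Fcrl5, an Fc receptor-like protein best known from B cells, was expressed at 3.999 and 2.38 FPKM at day 14 and 0.289 and 0.0927 FPKM at day 28. With 25 and 4 fragments left at day 28 it had the largest change of the 8, a fall by 3.89 on the log2 scale (SE 0.44, interval -4.90 to -2.91, adjusted p = 0.0344, same edgeR test and adjustment; chr3:87435773-87500678, plus strand). Neither Trpm2 nor Fcrl5 reached a mean of 5 FPKM at day 14 or 28, so neither was a stringent DE gene. At day 5 they had stood at 2.88, 2.77 and 3.18 and at 6.94, 4.97 and 5.68 FPKM. Neither was called without day 28 replicate 1 (-1.18 and -5.06, adjusted p = 0.224 and 0.121, same test) or without a day 5 library (adjusted p from 0.0669 to 0.0813), and Trpm2 not without day 28 replicate 2 (-1.23, adjusted p = 0.0646).

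**Figure D3:**
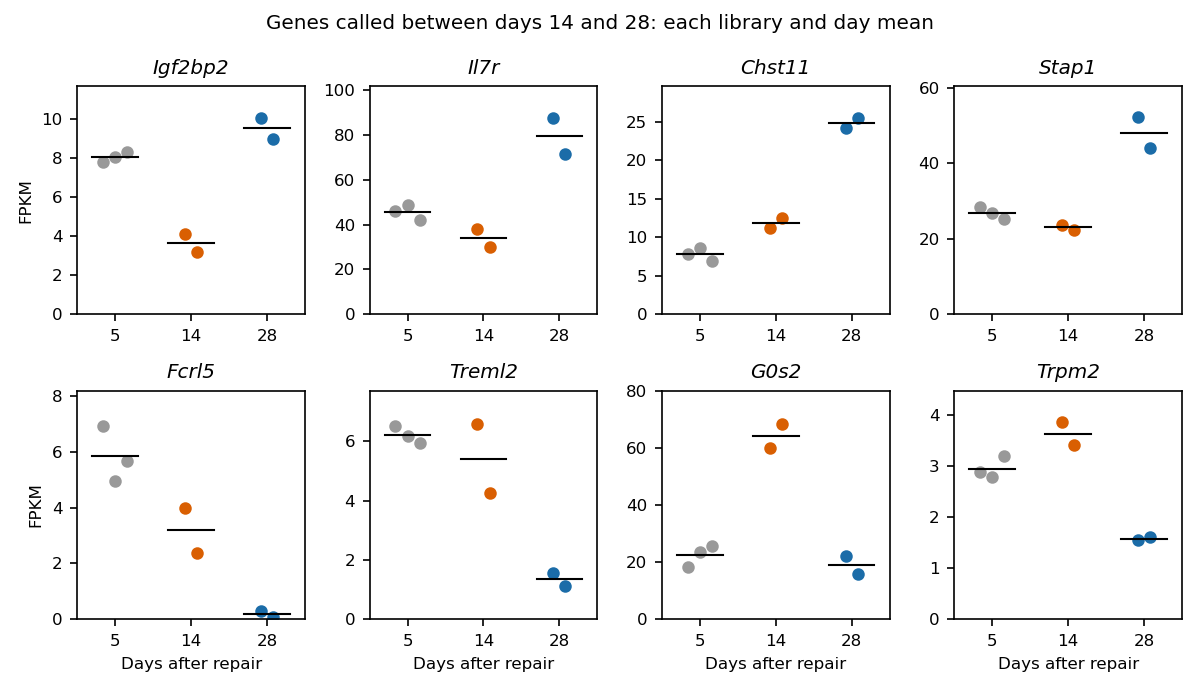
FPKM of the 8 genes called DE between days 14 and 28, one panel per gene, against days after repair; points are single libraries and lines are day means. Il7r, Stap1, Chst11 and Igf2bp2 (upper panels) are higher and Fcrl5, Treml2, G0s2 and Trpm2 (lower panels) lower in both day 28 libraries than in both of day 14.

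Of the 40 function lists, the one with the largest share of lower members was that of interferon-stimulated genes, which encode antiviral effectors and the factors that induce them. The list held 33 genes, all tested, and 27 of them were lower in both day 28 libraries than in both day 14 libraries (81.8%, against 19.7% of all genes) while none was higher. All 33 had a negative log2 fold change, with a median of -1.14 against 0.0093 over all genes tested, and 28 had an unadjusted p under 0.05. edgeR called none of them at an adjusted p under 0.05, whereas DESeq2 called 18, all lower, against 332 of all 12858 genes tested. The size followed the day 14 libraries: without day 14 replicate 2 the median was -1.64, with all 33 negative, and without day 14 replicate 1 it was -0.43, with 28 of 33 negative. The lower level at day 28 was therefore seen against either day 14 library, in fewer genes and by less against replicate 2.

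Among inducers, Irf7, the transcription factor that amplifies type I interferon, was the most abundant, at 626 and 269 FPKM at day 14 and 105 and 91.5 FPKM at day 28 (log2 fold change -2.18, SE 0.34, adjusted p = 0.0554, edgeR's quasi-likelihood test, Benjamini-Hochberg adjusted). It had been at 609.5, 522 and 433 FPKM at day 5. Bst2, which encodes tetherin, was at 416 and 205 FPKM at day 14 and 111 and 122.8 FPKM at day 28. Usp18, the protease that removes ISG15 from proteins and dampens interferon signalling, was at 36.7 and 18.3 FPKM at day 14 and 9.79 and 8.73 FPKM at day 28. Their log2 fold changes were -1.40 and -1.55 (adjusted p = 0.09996 and 0.0742, same test). In each of these genes day 14 replicate 2 lay between replicate 1 and the day 28 libraries. Oas3, an antiviral 2',5'-oligoadenylate synthetase, was at 48.9 and 18.4 FPKM at day 14 and 7.78 and 6.57 FPKM at day 28. Slfn4, a Schlafen gene of myeloid cells induced by interferon, was at 278 and 88.7 against 40.9 and 29.0 FPKM. Il18bp, which neutralises interleukin-18 and is itself induced by interferon, was at 28.2 and 14.4 FPKM at day 14 and 5.62 and 4.76 FPKM at day 28 (log2 fold change -2.02, adjusted p = 0.0514, same test).

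The 250 bases before the RefSeq start sites of the listed interferon-stimulated genes were searched for GAAA, any 2 bases and GAAA again. This is the core of the interferon response element. Both strands were searched, with overlapping matches counted. Of the 33 genes, 24 had an entry in the RefSeq promoter table (GRCm38.p6), and 10 of those held a match (41.7%). A match was present in 978 of all 32851 windows (2.98%) and in 263 of 9554 windows of genes tested (2.75%). The genes were listed as interferon-stimulated, so a larger share than over all genes could be foreseen and says nothing about day 28. For each of the 10 genes the match nearest to the start is printed with up to 10 bases on either side, 5′ to 3′ on the strand of the gene, with this match in capitals and any other match left in lower case, as the overlapping ones in Isg15, Oas1a and Bst2. A match that reads TTTC, any 2 bases and TTTC is the same motif on the other strand. These 10 genes are named for the match and not for their change. All 10 stretches lie outside the GENCODE model of their own gene, while overlap with other genes was not checked. The last base of the match in capitals lies 5 to 213 bases before the start. On the plus strand are Ifit1 (chr19:34640794-34640823), Ifit3 (chr19:34583397-34583426) and Stat2 (chr10:128270266-128270295), and on the minus strand Isg15 (chr4:156200865-156200894), Oas1a (chr5:120907526-120907549), Oas3 (chr5:120777715-120777744), Rsad2 (chr12:26456553-26456582), Bst2 (chr8:71537577-71537606), Ifi205 (chr1:174031870-174031899) and Trim30a (chr7:104465210-104465239).
Ifit1: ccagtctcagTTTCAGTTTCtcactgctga
Ifit3: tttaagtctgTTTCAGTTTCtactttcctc
Stat2: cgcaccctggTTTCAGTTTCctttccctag
Isg15: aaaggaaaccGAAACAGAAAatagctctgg
Oas1a: tcgggaaatgGAAACTGAAAatct
Oas3: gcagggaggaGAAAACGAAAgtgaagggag
Rsad2: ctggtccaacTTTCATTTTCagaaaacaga
Bst2: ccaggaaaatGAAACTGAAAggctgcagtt
Ifi205: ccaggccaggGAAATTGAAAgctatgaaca
Trim30a: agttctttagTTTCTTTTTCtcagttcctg
Of the 10, Ifit3, Isg15, Oas1a, Oas3, Stat2, Bst2 and Trim30a were lower in both day 28 libraries than in both of day 14. Over the whole list this held for 27 of 33, so genes with a match were not lower more often. The other 3 overlapped, Ifit1 at 18.9 and 6.65 against 7.08 and 6.93 FPKM, Rsad2 at 47.6 and 11.7 against 19.1 and 18.998 FPKM and Ifi205 at 25.0 and 4.38 against 7.602 and 7.54 FPKM from day 14 to day 28. In all 3, day 14 replicate 2 was below both day 28 libraries and replicate 1 well above them. A match is a description of these letters and shows no binding.

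Antigen presentation differed in sign by class. Of 23 tested genes of MHC class I presentation, 2 were higher and 16 lower in both day 28 libraries (69.6% lower, against 19.7% of all genes), with a median log2 fold change of -0.58 (-0.26 without day 14 replicate 1 and -0.75 without day 14 replicate 2). The light chain gene B2m was at 3481 and 2399.5 FPKM at day 14 and 2388 and 1901 FPKM at day 28 and the heavy chain genes H2-D1 and H2-K1 at 1995 and 1541 against 1231 and 1126 FPKM and 442 and 306 against 209.6 and 230.2 FPKM. Tap1, which carries peptides into the endoplasmic reticulum, was at 50.8 and 28.2 against 19.9 and 17.4 FPKM, and Psmb8 and Psmb9, subunits of the interferon-inducible proteasome, were at 149.5 and 104 against 81.5 and 84.7 FPKM and 72.8 and 49.3 against 36.3 and 33.1 FPKM. Of these 23 genes, all at a mean of at least 5 FPKM, 13 were stable (56.5%, against 90.5% of all genes at that level), B2m and H2-D1 among them. None was called by edgeR (14 had an unadjusted p under 0.05, all lower), and DESeq2 called 7, all lower, against 332 of all 12858 genes. H2 genes are close paralogs whose reads may be shared between them. MHC class II went the other way in sign. Of 11 tested genes, 5 were higher in both day 28 libraries (45.5%, against 19.3%) and none lower, with a median of 0.34 (0.71 without day 14 replicate 1 but 0.048 without replicate 2). The invariant chain gene Cd74 was at 2343 and 1411 FPKM at day 14 and 2268 and 2708 FPKM at day 28. H2-DMb1, which helps load peptide, was at 35.1 and 27.9 FPKM at day 14 and 43.1 and 48.5 FPKM at day 28. With 10 of the 11 stable and none called by edgeR (1 at an unadjusted p under 0.05), class II was bounded within 2-fold rather than shown to rise.

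Receptors for antibody and complement components were mostly lower. Of 26 tested genes, 3 were higher and 16 lower in both day 28 libraries (61.5% lower, against 19.7%), with a median log2 fold change of -0.66 (-0.26 without day 14 replicate 1 and -0.90 without replicate 2). Fcrl5 was the only member called by edgeR, while DESeq2 called 8, all lower, against 332 of all 12858 genes. C1qa and C1qb, chains of the complement component that tags debris, were at 1894 and 1269.8 FPKM at day 14 and 849.7 and 1152 FPKM at day 28, and at 1413 and 938 against 650.3 and 820.0 FPKM. Cfp, the complement factor properdin, was at 504 and 397 against 232 and 226 FPKM (log2 fold change -0.97, SE 0.15, adjusted p = 0.0554, edgeR's quasi-likelihood test, Benjamini-Hochberg adjusted; DESeq2 adjusted p = 6.24e-07), lower in both day 28 libraries.

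The TREM and CD300 receptors, paired activating and inhibitory receptors of myeloid cells, leaned lower. Of 18 tested, 2 were higher and 9 lower in both day 28 libraries (50% lower, against 19.7%), and 10 were stable. Besides Treml2, which fell, the activating receptors Trem1 (18.1 and 25.2 against 11.8 and 9.23 FPKM) and Trem3 (7.37 and 8.68 against 2.99 and 1.72 FPKM) and the receptors Treml4 (8.40 and 7.24 against 4.90 and 4.07 FPKM), Cd300e (9.73 and 6.40 against 2.57 and 1.04 FPKM) and Cd300lf (34.95 and 23.5 against 13.8 and 13.7 FPKM) were lower in both day 28 libraries than in both of day 14. edgeR called none of these 5, while DESeq2 called Trem1, Trem3, Cd300e and Cd300lf (adjusted p = 0.000171, 0.000962, 6.24e-07 and 0.000763). Over the list of 18 DESeq2 called 5 lower and 1 higher, against 332 of all 12858 genes. Trem2, the lipid-sensing receptor, stood at 527 and 533 FPKM at day 14 and 493 and 537 FPKM at day 28, and its adaptor Tyrobp at 1181 and 1115 against 1041 and 1002 FPKM. Both were stable, with intervals of -0.30 to 0.23 and -0.45 to 0.12 on the log2 scale. Cd300lb, an activating receptor, was higher in both day 28 libraries, 60.0 and 62.6 against 92.4 and 83.9 FPKM, but also within 2-fold (DESeq2 adjusted p = 0.00883). Cd300c was too low to be tested.

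Around Il7r, the common gamma chain receptors and their signalling genes did not share its rise. edgeR called Il7r alone, and DESeq2 also 3 members lower, against 332 of all 12858 genes that DESeq2 called. Of 23 tested, 2 were higher and 9 lower in both day 28 libraries (39.1% lower, against 19.7%), with a median of -0.21 (0.024 without day 14 replicate 1 and -0.34 without replicate 2). The common gamma chain Il2rg was stable at 136 and 116 against 113 and 104 FPKM, and Crlf2, the partner of Il7r for thymic stromal lymphopoietin, at 105 and 114 against 76.1 and 96.6 FPKM. Il21r was at 19.1 and 15.0 FPKM at day 14 and 9.27 and 9.78 FPKM at day 28, Jak3, the kinase bound to the gamma chain, at 35.8 and 28.3 against 17.4 and 23.7 FPKM, and the ligand gene Il15 at 9.001 and 7.18 against 5.17 and 2.89 FPKM, all lower in both day 28 libraries. Bcl2, a survival gene induced by interleukin-7 in lymphocytes, was the other higher member, at 1.68 and 2.33 against 3.41 and 2.98 FPKM. Il7 itself was too low to be tested. Socs3, a feedback inhibitor of cytokine signalling, was at 882 and 301 FPKM at day 14 and 213 and 288 FPKM at day 28, with day 14 replicate 1 alone at the high level.

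Around Chst11, the pathway that builds chondroitin sulfate was as stable as other genes. Of 27 tested genes 19 were stable (70.4%, against 66.8% of all genes), 4 were higher and 6 lower in both day 28 libraries (14.8% and 22.2%, against 19.3% and 19.7%), and the median was -0.021 (-0.071 to 0.048 with a library left out). Xylt2, which starts the chain by adding xylose, was lower at 75.3 and 49.0 against 29.5 and 33.9 FPKM (called by DESeq2, adjusted p = 0.000962, and not by edgeR), while its paralog Xylt1 was at 14.0 and 16.1 against 17.4 and 20.02 FPKM. Of the other sulfotransferases, Chst3, which adds 6-O-sulfate, was higher in both day 28 libraries at a low level, 0.149 and 0.226 against 0.809 and 0.413 FPKM, with a log2 fold change of 1.71 that was larger than that of Chst11 but not called (SE 0.49, adjusted p = 0.213, edgeR's quasi-likelihood test, Benjamini-Hochberg adjusted). Chst12 was stable at 21.2 and 29.9 against 24.3 and 23.9 FPKM and Chst14, which acts on dermatan, at 8.70 and 8.29 against 5.80 and 6.50 FPKM. The core proteins Cd44 (305 and 249 against 285 and 278 FPKM) and Vcan (12.7 and 9.53 against 12.98 and 10.8 FPKM) were stable too. The list as a whole thus did not rise with Chst11, the only member called by edgeR. Around Igf2bp2, its paralogs Igf2bp1 and Igf2bp3 stayed under 1 FPKM in each of the 4 libraries, and Lin28a and Lin28b were too low to be tested. Of 17 tested members 11 were stable (64.7%, against 66.8%), with 3 higher and 4 lower in both day 28 libraries (17.6% and 23.5%, against 19.3% and 19.7%). The median was -0.069 (-0.13 to 0.032 with a library left out). Hmga1 was stable at 86.3 and 63.5 against 60.4 and 70.7 FPKM and Myc at 16.8 and 16.6 against 11.6 and 20.2 FPKM.

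Around G0s2, genes of lipid droplets and lipolysis were stable in 20 of 26 tested (76.9%, against 66.8%), and in 18 of 21 at a mean of at least 5 FPKM (85.7%, against 90.5% of all genes at that level), with 1 higher and 9 lower in both day 28 libraries (34.6% lower, against 19.7%). Pnpla2, the lipase that G0s2 inhibits, was at 41.1 and 35.8 FPKM at day 14 and 30.6 and 34.8 FPKM at day 28, and Abhd5, its activator, at 16.5 and 16.6 against 19.8 and 16.2 FPKM. Both were stable. Hilpda, another inhibitor of this lipase, was at 356 and 288 against 308 and 308 FPKM, and the droplet coat gene Plin2 at 656 and 611 against 530.1 and 579 FPKM. G0s2 thus fell while the lipase, its activator and its other inhibitor stayed within 2-fold. Dgat2, which makes triglyceride, was at 10.3 and 7.78 against 4.45 and 6.89 FPKM.

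The genes with the largest changes by the naming rule were not called by edgeR. The rule drew on 1098 genes (450 higher, 648 lower) with an unadjusted p under 0.05 and libraries that did not overlap. Their mean was at least 5 FPKM on either day, for some, such as Efr3b and Mamdc2, only on the day when they were higher. DESeq2 called 6 of the 10 largest rises and 7 of the 10 largest falls, against 332 of all 12858 genes. Both sets were picked by size and p from the same libraries, so these calls are no separate support. Among the 10 largest rises, Mmp12, macrophage elastase, was at 36.5 and 251 FPKM at day 14 and 633 and 431 FPKM at day 28. Its interval was wide, 0.30 to 3.48, and its day 14 libraries differed. Lrrc32, which holds latent TGF-beta at the cell surface, was at 1.77 and 3.14 FPKM at day 14 and 13.6 and 14.2 FPKM at day 28 (log2 fold change 2.49, SE 0.39, adjusted p = 0.0554, edgeR's quasi-likelihood test, Benjamini-Hochberg adjusted). Inhba, the subunit of activin A, was at 12.9 and 4.02 FPKM at day 14 and 27.8 and 36.0 FPKM at day 28, above all libraries of days 5 and 14. Mfge8, which links phosphatidylserine on dying cells to integrins, was at 18.7 and 48.7 against 96.0 and 132 FPKM. Dcstamp, needed for macrophage fusion, was at 4.59 and 4.75 against 15.7 and 15.5 FPKM. For Mfge8 and Dcstamp the day 5 levels were 6.22, 7.59 and 5.67 and 0.366, 1.14 and 0.382 FPKM, so they stood in the order of the days. The others were Mamdc2 (0.951 and 2.09 against 6.08 and 9.88 FPKM), the ribonuclease Ear2 (7.08 and 8.69 against 34.0 and 39.5 FPKM), Efr3b (0.505 and 2.06 against 4.91 and 5.14 FPKM), Zranb3 (2.12 and 4.16 against 10.2 and 10.7 FPKM) and Wfs1 (5.53 and 11.98 against 23.9 and 31.0 FPKM). Ear2 has close paralogs, so its reads are uncertain.

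Of the 10 largest falls, Irf7, Oas3 and Slfn4 are given above. Ly6c2, a marker of inflammatory monocytes, was at 114 and 18.2 FPKM at day 14 and 12.2 and 8.31 FPKM at day 28, and its neighbours Ly6c1 and Ly6a at 71.8 and 12.2 against 9.96 and 6.21 FPKM and 23.8 and 9.21 against 3.25 and 1.41 FPKM. These are close paralogs, so their values may not be separate. Ltb, a TNF family ligand, was at 27.6 and 11.5 FPKM at day 14 and 4.17 and 4.30 FPKM at day 28 and Spon1, a matrix protein, at 15.2 and 5.45 against 2.203 and 2.56 FPKM. I830012O16Rik was at 8.60 and 4.203 against 1.74 and 0.573 FPKM. Mir1938 was at 153 and 201 against 26.9 and 36.1 FPKM, a microRNA gene so short that its FPKM rests on few fragments (8, 13, 3 and 2 in the 4 libraries). In Ly6c2 and Ly6c1 most of the difference lay in day 14 replicate 1, and without it their log2 fold changes were -0.80 and -0.50.

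Genes of lipid-associated macrophages, a state marked by Trem2 and debris uptake, lay on both sides. Of 24 tested, 10 were higher and 7 lower in both day 28 libraries (41.7% higher, against 19.3%, and 29.2% lower, against 19.7%), with a median of 0.17 that ranged from 0.10 to 0.18 with each of the 4 libraries left out. Gpnmb, a glycoprotein of phagocytic macrophages, was at 128 and 203 FPKM at day 14 and 387 and 453 FPKM at day 28 (log2 fold change 1.34, SE 0.21, adjusted p = 0.0554, edgeR's quasi-likelihood test, Benjamini-Hochberg adjusted), and the cathepsin gene Ctsl was stable at 2638 and 2407 against 3271 and 2891 FPKM. Apoe, the most abundant gene of this list, was at 19480 and 12564 FPKM at day 14 and 8252 and 12450 FPKM at day 28, and the growth factor Csf1 was at 24.8 and 22.7 against 13.8 and 13.4 FPKM. Genes of cholesterol efflux and nuclear receptors were mostly lower. Of 18, 1 was higher and 10 lower in both day 28 libraries (55.6% lower, against 19.7%), with a median of -0.35 and a range of -0.41 to -0.26 with a library left out. Abcg1, which exports cholesterol to lipoproteins, was at 78.8 and 70.1 FPKM at day 14 and 40.8 and 44.5 FPKM at day 28 (log2 fold change -0.80, SE 0.12, adjusted p = 0.0554, same edgeR test and adjustment). Npc2, a lysosomal cholesterol carrier, was stable at 371 and 281 against 287 and 271 FPKM, and Nr1d1, a nuclear receptor of the clock, was at 24.5 and 22.2 against 12.4 and 17.0 FPKM. The list of cholesterol synthesis and uptake had 18 of 23 genes stable (78.3%, against 66.8%), with 2 higher and 0 lower in both day 28 libraries. At a mean of at least 5 FPKM it had 15 of 16 stable (93.8%), near the 90.5% of all genes at that level. Its median of 0.088 changed sign with the day 14 library left out, -0.13 without replicate 1 and 0.41 without replicate 2.

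Genes of digestion were stable about as often as all genes at their level, and the share was smaller for genes of uptake. Of 37 lysosomal genes, all at a mean of at least 5 FPKM, 34 were stable (91.9%, against 90.5% of all genes at that level). Among them 5 were higher and 17 lower in both day 28 libraries (45.9% lower, against 19.7%), with a median of -0.11 (-0.19 to -0.040 with a library left out). Psap, a precursor of lysosomal activators, was at 5305 and 4813 FPKM at day 14 and 4273 and 5060.2 FPKM at day 28, and the protease gene Lgmn at 1737 and 1238 against 947 and 1019 FPKM, lower in both day 28 libraries and still within 2-fold. Of 25 efferocytosis receptors and bridges, 4 were higher and 8 lower in both day 28 libraries (32% lower) and 13 were stable (52%, against 66.8%), with a median of 0.011 (-0.15 to 0.093 with a library left out). Of 26 scavenger and C-type lectin receptors, 3 were higher and 4 lower in both day 28 libraries (15.4% lower) and 16 were stable (61.5%). At a mean of at least 5 FPKM, 13 of 20 efferocytosis genes and 16 of 24 scavenger and lectin receptors were stable (65% and 66.7%, against 90.5%). Among the latter, Cd68 was stable at 1141 and 973 against 916 and 1001 FPKM, while Olr1, a receptor for oxidised lipoprotein, and Clec7a, the receptor for beta-glucan, were higher in both day 28 libraries, 39.2 and 29.7 against 80.5 and 61.7 FPKM and 104 and 126 against 265 and 174 FPKM. Cd36 overlapped at 256 and 467 against 689 and 437 FPKM. Of 27 genes of the NRF2 and heme response, 15 were stable, with 5 higher and 10 lower in both day 28 libraries (37% lower, against 19.7%). Srxn1, which repairs oxidised peroxiredoxin, was at 67.6 and 79.6 FPKM at day 14 and 146 and 132 FPKM at day 28 (log2 fold change 0.92, SE 0.13, adjusted p = 0.0514, edgeR's quasi-likelihood test, Benjamini-Hochberg adjusted), and the cystine carrier Slc7a11 at 17.3 and 20.01 against 46.6 and 35.8 FPKM.

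Inflammatory groups gave values that turned on the day 14 library used. For CC and CXC chemokines, with 25 tested, 7 were higher and 4 lower in both day 28 libraries (28% and 16%, against 19.3% and 19.7% of all genes). The median log2 fold change of -0.14 was 0.53 without day 14 replicate 1 and -0.54 without day 14 replicate 2. The neutrophil-attracting chemokines Cxcl2 and Cxcl1 were abundant and stable, 2945 and 2294 against 3548 and 3349 FPKM and 1570.3 and 1416 against 2045 and 2034 FPKM. Ccl24, which attracts eosinophils, was higher in both day 28 libraries at 68.3 and 55.6 against 111.8 and 114 FPKM, as was Cxcl3 at 220.1 and 135 against 403 and 279 FPKM. Genes of the response to IFNg and LPS (29 tested, 5 higher and 5 lower in both day 28 libraries, 17.2% each) had a median of -0.23, which was 0.28 without replicate 1 and -0.63 without replicate 2. Genes of the response to IL4 (26 tested, 7 higher and 3 lower, 26.9% and 11.5%) had 0.10, 0.33 and -0.26. The sign of these 3 medians thus depended on which day 14 library was kept. Within them, Il1b was stable at 735 and 618 against 783 and 728 FPKM and Il1rn, the receptor antagonist, at 529.7 and 238 against 431 and 397 FPKM, while Cd38 was lower at 29.2 and 20.7 against 11.5 and 13.2 FPKM and the arginine carrier Slc7a2 higher at 6.77 and 6.27 against 15.8 and 12.95 FPKM.

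Other signalling lists held more members lower than higher in most cases. TNF and NF-kB genes were stable in 20 of 26, with none higher and 6 lower in both day 28 libraries (23.1%, against 19.7%) and a median of -0.32 (0.072 without day 14 replicate 1 and -0.49 without replicate 2). Tnf itself was at 377 and 355 against 348 and 458 FPKM and Nfkbia, the inhibitor of NF-kB, at 1199.5 and 1014 against 699 and 948 FPKM. Toll-like receptor genes were stable in 20 of 23, with 1 higher and 7 lower (30.4% lower), and Unc93b1, which escorts these receptors to endosomes, was at 585 and 481 against 339.7 and 390.3 FPKM. The interleukin-1 family and inflammasome list had 14 of 23 stable, 2 higher and 5 lower (8.70% and 21.7%, against 19.3% and 19.7%). Of 17 chemokine receptors 5 were stable (29.4%, against 66.8%), with 2 higher and 5 lower (11.8% and 29.4%). At a mean of at least 5 FPKM 5 of 11 were stable (45.5%, against 90.5%). Fpr1 and Cxcr2, receptors that are abundant on neutrophils, were at 14.6 and 19.3 against 6.85 and 4.58 FPKM and 5.31 and 6.50 against 2.10 and 1.70 FPKM, both lower in both day 28 libraries, and Cxcr4 was stable at 300.4 and 277 against 289 and 290.0 FPKM. Of 34 immediate early and stress genes, 1 was higher and 17 lower in both day 28 libraries (50% lower, against 19.7%). Their median was -0.39, with a range of -0.62 to -0.22 with a library left out. edgeR called none of them and DESeq2 called 5, all lower, against 332 of all 12858 genes. Jun was at 247 and 315 FPKM at day 14 and 130.4 and 194 FPKM at day 28. Klf2, a factor that restrains inflammation, was at 161 and 242 against 91.6 and 126 FPKM. Prostaglandin and leukotriene genes were stable in 14 of 20 (70%, against 66.8%), with 4 higher and 3 lower (20% and 15%, against 19.3% and 19.7%). Ptgs2 was at 287 and 182 against 355 and 399 FPKM and Ptger4, a receptor for prostaglandin E2, at 30.3 and 23.3 against 14.4 and 17.1 FPKM.

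Lists that mark macrophage origin and identity held a larger share of members lower in both day 28 libraries than all genes (19.7%), but their medians were small and moved with the libraries used. Of 28 monocyte and recent recruit genes, 4 were higher and 10 lower in both day 28 libraries (35.7% lower, against 19.7%), with a median of -0.13 (-0.23 to -0.0084 with a library left out). F10, coagulation factor X, was higher at 83.1 and 95.6 against 204 and 181 FPKM. Of 26 resident-type genes, 4 were higher and 9 lower in both day 28 libraries (34.6% lower), with a median of -0.23 (0.092 without day 14 replicate 1 and -0.48 without replicate 2). Sepp1, which carries selenium, was at 2288 and 1484 FPKM at day 14 and 1118 and 1260.5 FPKM at day 28. Of 17 pan-macrophage genes 16 were stable, none higher and 7 lower in both day 28 libraries (41.2% lower, median -0.12, -0.17 to -0.14 with a library left out). The exception was Aif1, at 198 and 138 FPKM at day 14 and 86.7 and 88.3 FPKM at day 28. Lineage transcription factors were stable in 17 of 27, with 5 higher and 11 lower in both day 28 libraries (40.7% lower, median -0.23, -0.37 to -0.10 with a library left out), Cebpb at 1029 and 912 against 894 and 912 FPKM and Id3 at 50.4 and 44.1 against 20.5 and 32.7 FPKM. Of 8 genes of sort markers tested, 1 was higher and 4 lower in both day 28 libraries (median -0.22, -0.35 to -0.17 with a library left out). Among them, Cd14 was at 1836 and 1431 FPKM at day 14 and 1433 and 1799 FPKM at day 28, Itgam, which encodes CD11b, at 201 and 275 against 289 and 235 FPKM, Fcgr3 and Fcgr2b, which encode CD16 and CD32, at 255 and 276 against 268 and 249.7 FPKM and 515 and 424 against 356 and 352 FPKM, and Emr1, which encodes F4/80, at 344 and 249 against 195 and 209 FPKM. All 5 were stable. Emr1 was lower in both day 28 libraries, with an interval of -0.96 to -0.14. Of the lineage markers used to drop cells, Cd3e was too low to be tested and Thy1, Pecam1 and Siglec5 stayed under 5 FPKM in each library.

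Matrix, growth factor and stress genes included some of the genes nearest to the threshold. Of 25 metalloproteinases and inhibitors, 5 were higher and 7 lower in both day 28 libraries (20% and 28%, against 19.3% and 19.7%), and 11 were stable (44%, against 66.8%). Their median of 0.035 was 0.29 without day 14 replicate 1 and -0.33 without replicate 2. Mmp19 was at 176 and 182 FPKM at day 14 and 389.5 and 357 FPKM at day 28 (log2 fold change 1.06, SE 0.15, adjusted p = 0.0514, edgeR's quasi-likelihood test, Benjamini-Hochberg adjusted). Mmp9, a gelatinase that neutrophils also store, was at 32.9 and 45.2 FPKM at day 14 and 12.3 and 13.4 FPKM at day 28 (-1.60, SE 0.23, adjusted p = 0.0514, same test). Each lay outside the 2 levels of the other day by more than the spread within a day. Of 32 angiogenic, trophic and growth factors, 7 were higher and 7 lower in both day 28 libraries, near the background, and their median of -0.13 was 0.17 and -0.34 without the same libraries, with Vegfa stable at 162 and 193 against 247 and 207 FPKM and Areg, an EGF family ligand, at 9.58 and 11.8 against 18.998 and 26.5 FPKM. Unfolded protein and amino acid stress genes were stable in 18 of 25 (72%, against 66.8% of all genes). Of the 25, 8 were higher and 2 lower in both day 28 libraries (32% and 8%, against 19.3% and 19.7%). The chaperone gene Hspa5 was at 549 and 486 against 474 and 511 FPKM and Mthfd2, a mitochondrial folate enzyme, at 6.65 and 9.60 against 14.8 and 12.3 FPKM. Cell cycle genes were stable in 27 of 38, 1 higher and 14 lower in both day 28 libraries (36.8% lower, against 19.7%), with a median of -0.20 that ranged from -0.42 to -0.00056 with a library left out, the highest without day 28 replicate 1. Pcna was stable at 134 and 121 against 143 and 136 FPKM, and Ccnd2, a D-type cyclin, was at 2.70 and 2.13 against 1.26 and 1.73 FPKM.

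**Figure D4:**
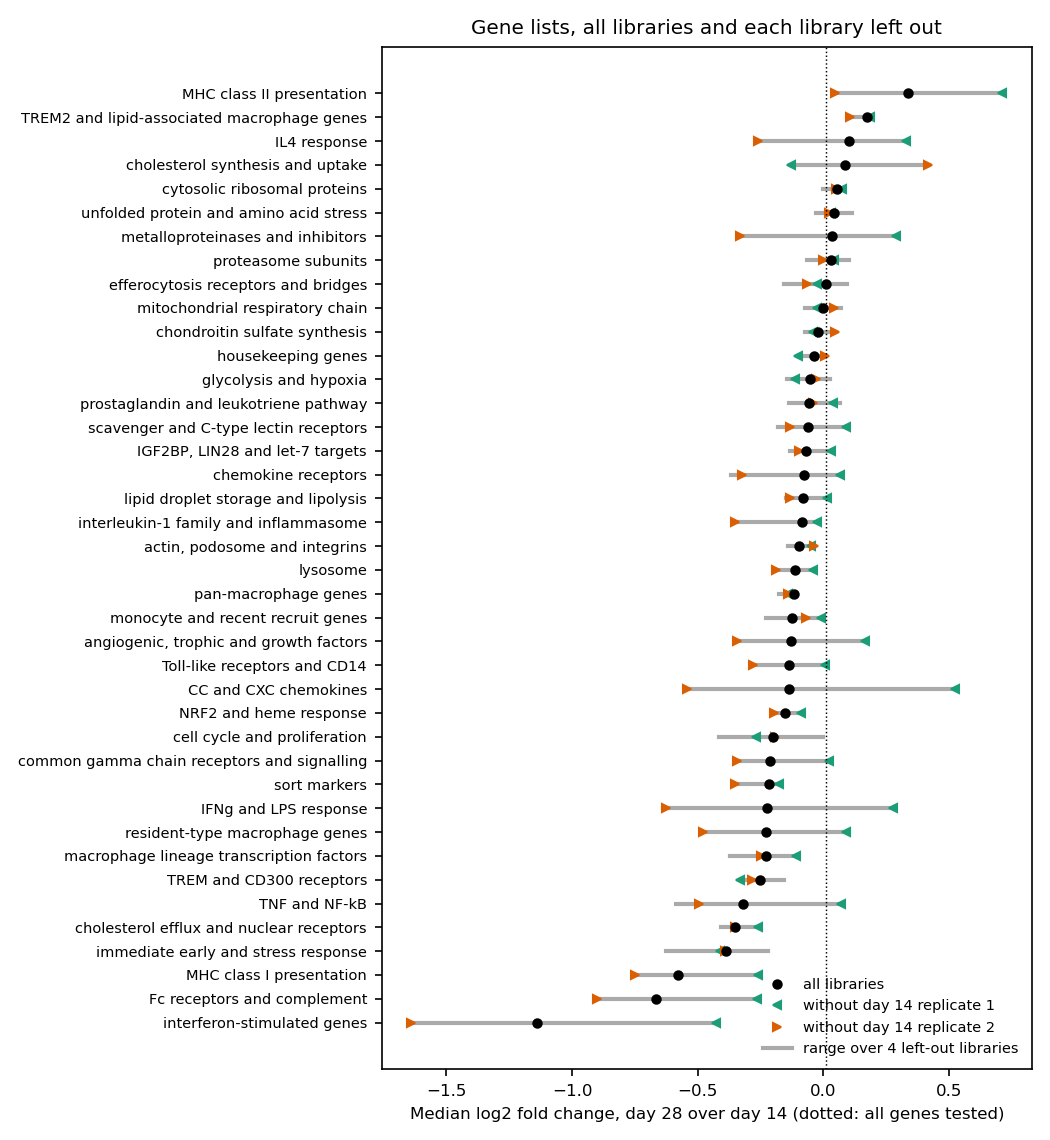
Median log2 fold change from day 14 to day 28 (horizontal) for each gene list (vertical); black points use all libraries, triangles leave out a day 14 library, and grey bars span the values with each of the 4 libraries left out. Interferon-stimulated genes lie lowest, from -1.64 to -0.43, and 19 of the 40 medians, those of the chemokines and of the IL4 and IFNg and LPS responses among them, differ in sign between the fits without either day 14 library.

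What stayed stable was most of the expressed genome, as far as the intervals reach. The share of genes with an interval within 2-fold was 90.5% (6887 of 7613) at a mean of at least 5 FPKM, 55.5% between 1 and 5 FPKM and 3.65% under 1 FPKM. Below 1 FPKM few intervals were narrow enough to lie within 2-fold, so a gene outside the stable set at that level is not thereby a changed one. With the bound drawn at 0.58 on the log2 scale in place of 1, 4942 genes were stable. Of the 100 most abundant genes 86 were stable and none called by edgeR, with a median absolute log2 fold change of 0.135. At a mean of at least 5 FPKM these were 90.5% and 0.159 over all genes, so the most abundant genes were stable about as often as others of this level. The most abundant were the lysozyme gene Lyz2, at 12817 and 18376 FPKM at day 14 and 14985 and 13862 FPKM at day 28, Apoe, and the ferritin genes Ftl1 and Fth1, at 12440 and 12577 against 10377 and 11887 FPKM and 10297 and 9792 against 9418 and 8459 FPKM. The next were Tmsb4x (5646 and 5389 against 6832 and 4844 FPKM), Psap, Rn45s, Ctss (3686 and 3299 against 3757 and 2896 FPKM), Actb (3308 and 3583 against 2150.3 and 3354 FPKM) and Eef1a1 (3059 and 2921 against 3274 and 3109 FPKM). Of these 10, only Apoe and Rn45s were outside the stable set. Rn45s, the precursor of ribosomal RNA, took 2.28% and 3.12% of fragments at day 14 and 0.863% and 2.32% at day 28.

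The machinery of the cell stayed mostly within 2-fold. Of 81 cytosolic ribosomal protein genes 77 were stable, with a median of 0.056 (-0.0016 to 0.075 with a library left out). Among them 24 were higher and 10 lower in both day 28 libraries (29.6% and 12.3%, against 19.3% and 19.7%). Of 76 respiratory chain genes 71 were stable, with a median of 0.00033 (-0.071 to 0.069 with a library left out), and of 38 proteasome genes 36. In the last group the exceptions included Psmb9, the interferon-inducible subunit, while the constitutive subunits Psmb6 and Psmb4 stayed at 199 and 155 against 183 and 179 FPKM and 188 and 164 against 141 and 159 FPKM. All 18 housekeeping genes were stable, 25 of 28 genes of glycolysis and hypoxia, with Pkm at 738 and 819.6 against 761 and 726 FPKM and Gapdh at 653 and 813 against 724 and 671 FPKM, and 29 of 33 genes of actin, podosomes and integrins. The shares for these groups, 95.1%, 93.4%, 94.7%, 100%, 89.3% and 87.9%, compare with 66.8% of all genes, but most of their members are abundant, and at a mean of at least 5 FPKM the background was 90.5%. Read against that, interferon-stimulated genes (1 of 33 stable), chemokines (6 of 22), monocyte genes (9 of 25) and Fc receptor and complement genes (8 of 20) were the function lists with the lowest shares of stable members at this level.

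**Figure D5:**
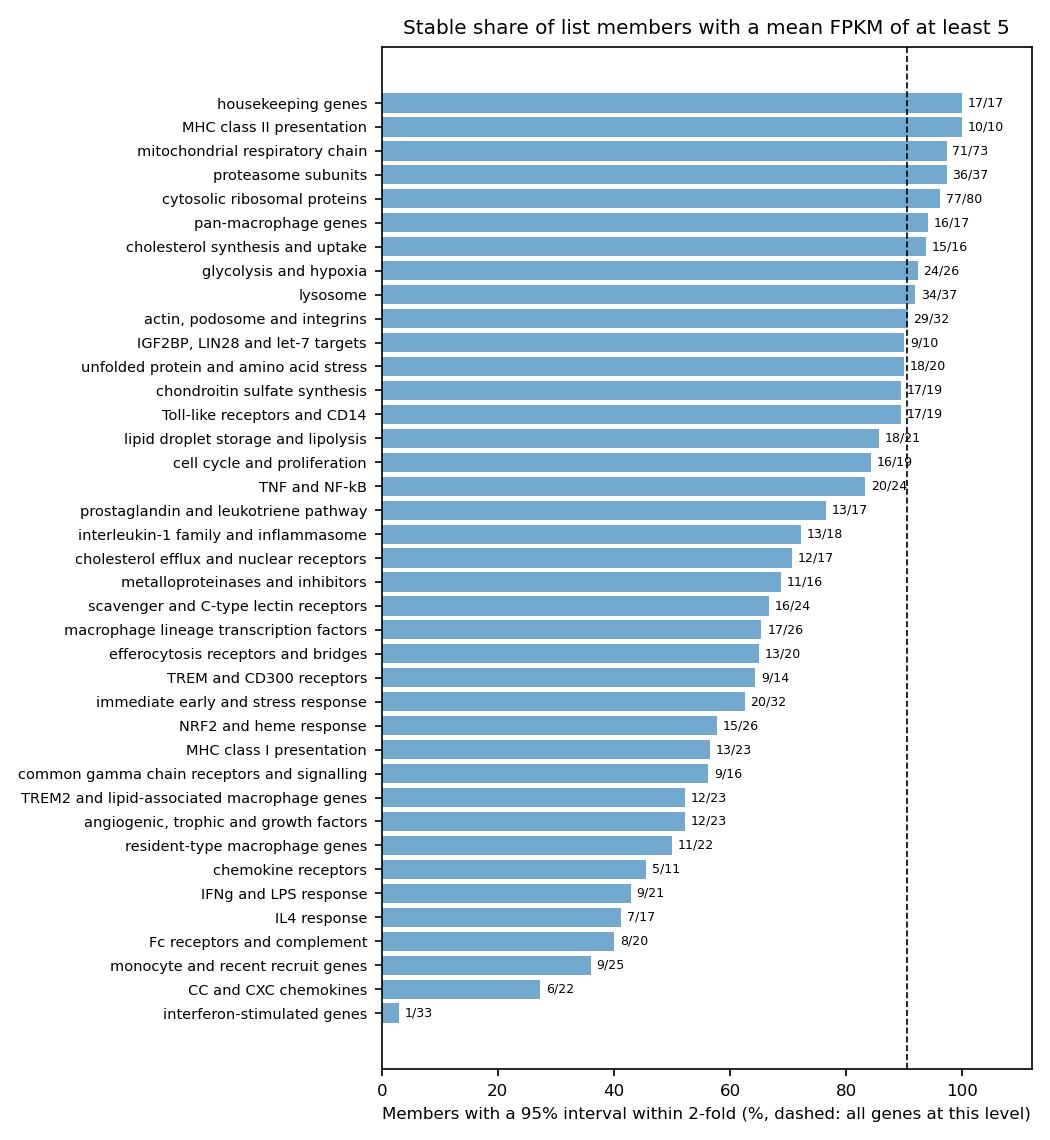
Share of list members with a 95% interval within 2-fold between days 14 and 28 (horizontal, percent), among members with a mean of at least 5 FPKM and for lists with at least 8 such members; the numbers give stable members over members at this level. The dashed line is the 90.5% of all genes at this level, and interferon-stimulated genes (1 of 33) lie lowest.

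Of the genes that the study's own text names for the time course, several overlapped between the days. Il1a was stable, at 126 and 71.9 FPKM at day 14 and 98.2 and 111 FPKM at day 28. Retnla overlapped between days at 117 and 58.4 FPKM at day 14 and 95.5 and 50.8 FPKM at day 28, as did Chi3l3 (6.61 and 2.197 against 3.62 and 10.8 FPKM), Alox15 (5.22 and 1.51 against 1.09 and 2.51 FPKM), Ccl2 (366 and 104 against 125 and 191 FPKM), Ccl7 (392 and 92.0 against 142 and 159 FPKM) and Cx3cl1 (0.0751 and 0.288 against 0.123 and 0.424 FPKM). In Ccl2, Ccl7 and Alox15 day 14 replicate 1 was above all 3 other libraries. Egr1, an immediate early gene, was lower at 189 and 192 against 56.4 and 136 FPKM, without overlap. Nes and Clu were higher in both day 28 libraries at low levels, 0.0932 and 0.481 against 1.36 and 2.95 FPKM and 0.378 and 0.499 against 0.644 and 4.36 FPKM. Nos2, at 10.5, 2.85 and 6.34 FPKM at day 5, was at 2.03 and 0.0823 FPKM at day 14 and 0.0478 and 0.0960 FPKM at day 28, so that nearly all of its expression at day 14 was in replicate 1. Sct had 12 and 17 fragments at day 14 (2.17 and 2.48 FPKM) and none in either day 28 library, below the floor of 3 fragments, and was not called by edgeR's quasi-likelihood test (Benjamini-Hochberg adjusted p = 0.132), though it was by DESeq2 (adjusted p = 0.0124). Chi3l3, Ccl2 and Ccl7 have close paralogs, so their reads are uncertain.

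Markers of other cells that the sort could still hold were read out in the same libraries. Neutrophil genes were lower at day 28: all 9 tested of 14 were lower in both day 28 libraries (against 19.7% of all genes), with sums of 656 and 648 FPKM at day 14 and 319.8 and 180.4 FPKM at day 28. S100a9 led with 334 and 295 against 137 and 61.4 FPKM, and Elane and Stfa1 had 0 fragments in all 4 libraries. Fibroblast genes were lower too, 11 of 12 listed and tested (91.7%, against 19.7% of all genes), with sums of 248 and 93.3 FPKM at day 14 and 46.3 and 67.0 FPKM at day 28. Col1a1 led at 82.4 and 29.9 against 10.4 and 22.4 FPKM, with Col1a2 and Col3a1 at 48.1 and 18.4 against 9.996 and 13.5 FPKM and 76.1 and 25.98 against 11.4 and 17.0 FPKM. Without day 14 replicate 1 the median log2 fold change of the fibroblast list went from -1.50 to -0.76. In bulk samples fewer cells of a type and less RNA per cell cannot be told apart. Several genes that were lower at day 28, such as Mmp9, Cxcr2, Fpr1 and Trem1, are also expressed by neutrophils, and Spon1 by fibroblasts. The sort was set to exclude both, by Ly6G for granulocytes and Thy1.2 for fibroblasts. The part of these cells in those values, and in the called genes, was not tested.

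The other marker lists were small or uneven. Schwann cell genes (3 tested of 12) summed to 281 and 159.7 against 154 and 157 FPKM from day 14 to day 28, nearly all of it Pmp22 (267 and 139 against 133 and 138 FPKM), while Sox10 had at most 4 fragments in a library and Gfap 0 in all 4. Erythrocyte genes (4 tested of 10) summed to 155 and 17.5 against 9.65 and 25.7 FPKM, led by Beta-s at 95.7 and 9.26 against 5.79 and 13.2 FPKM, with Epb4.2 at 0, and day 14 replicate 1 stood apart. Platelet genes (4 tested of 8) summed to 523 and 412 against 346 and 267 FPKM, led by Pf4 at 519 and 403 against 332 and 257 FPKM, which macrophages express as well. Mast cell genes (3 tested of 10) summed to 42.3 and 35.2 against 17.9 and 11.04 FPKM, led by Hdc at 41.8 and 34.9 against 16.7 and 9.33 FPKM, with Fcer1a at 0. The lower sum is Hdc alone, since the other tested members had positive log2 fold changes with all libraries. The mast cell median of 0.86 was -0.13 without day 28 replicate 2 and 1.42 without day 28 replicate 1. Endothelial genes (10 tested of 12) summed to 41.2 and 29.9 against 28.6 and 25.7 FPKM (led by Eng), dendritic cell genes (13 tested of 14) to 48.4 and 19.3 against 33.0 and 58.5 FPKM (led by Ccr7), and T cell genes (5 tested of 12) to 20.5 and 24.4 against 21.9 and 21.4 FPKM (led by Cd2, with Trat1 at 0). Of these 3 sums the endothelial one was lower in both day 28 libraries, and the other sums overlapped. Of the 10 tested endothelial members 6 had positive log2 fold changes. Their median of 0.29 was -0.39 without day 28 replicate 1 and 0.65 without day 28 replicate 2. B cell genes (2 tested of 10) summed to 11.2 and 6.50 against 5.51 and 4.63 FPKM (led by Cd79b, Mzb1 at 0), NK and ILC genes (6 tested of 11) to 11.8 and 6.55 against 5.64 and 8.26 FPKM (led by Rora), and eosinophil genes (3 tested of 8) to 11.1 and 3.38 against 4.68 and 5.99 FPKM (led by Alox15, Epx at 0). Pericyte and smooth muscle genes (7 tested of 8) summed to 6.84 and 7.13 against 8.91 and 7.38 FPKM (led by Tagln), skeletal muscle genes (4 tested of 10) to 1.02 and 1.55 against 1.60 and 1.76 FPKM (led by Mylpf, with Myh2, Myh4 and Mb at 0) and adipocyte genes (1 tested of 8) to 2.44 and 0.838 against 1.56 and 2.02 FPKM (led by Car3, with Adipoq, Lep and Cidea at 0). Their part in the results was not tested.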

How the data were processed

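RNASeq of sorted macrophages from 7 libraries (3 of day 5, 2 each of days 14 and 28) was used as deposited, in 1 table per gene and library. Per the labels and methods, the authors used cutadapt 1.8 to trim the single-end reads, TopHat2 2.0.13 to map them to mm10 and Cuffdiff 2.2.1 to quantify genes. The deposited raw fragments are expected counts, of which 0.947% are not whole, and they were rounded before testing. The deposited scaled fragments are a signal, raw fragments times 1 factor per library, and were used only to take cuffdiff's scaling. The deposited FPKM values served for levels. Status was marked as failed for 8 values of 4 genes. Cuffdiff's own test cannot be rerun from this table. Strand use and the treatment of reads that map to several places are not stated, so paralogs and overlapping genes are uncertain.

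The test was edgeR's quasi-likelihood F test (version 4.0.16, R 4.3.3; TMM scaling, filterByExpr by day, contrast of day 28 minus day 14 in a fit of all 7 libraries, with 4 residual degrees of freedom and a median of 9.35 in total after moderation). The Benjamini-Hochberg adjustment covered 12858 genes, with calls at an adjusted p under 0.05. SE is the unshrunk log2 fold change over the square root of F. Stringent calls also needed a 2-fold difference between mean FPKM and a mean of at least 5 FPKM on either day. Stable means a 95% interval inside -1 to 1 on the log2 scale. Alternatives were DESeq2 1.42.0, limma 3.58.1 on FPKM with 2 pseudocounts, RLE and cuffdiff scaling, no filter or an FPKM filter, only the 4 libraries, a block for replicate number, each library left out, and other thresholds. Tables and figures used Python 3.11.15, numpy 2.4.6, pandas 2.3.3 and matplotlib 3.10.9.

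Gene lists, 40 of functions and 15 of other cell types, were written from general knowledge of the genes and matched by symbol (1112 genes), synonym (6) or name pattern (203), with 3 genes not found. Lists were described by counts and medians beside all genes tested, and not tested as sets. Members and lists were chosen with earlier results of these data known. Genes could be named if called or if among the 10 largest rises or falls. Rises and falls needed an unadjusted p under 0.05, a mean of at least 5 FPKM on either day and no overlap between days. Also open to naming were the 2 most abundant genes and the 2 with the lowest p of a list. The same held for members of the lists around called genes, sort markers, the 10 most abundant genes and genes that the study's text names. The text names part of these, picked with their values known. Genes given only for a motif, or as the most abundant or undetected marker of another cell type, and S100a9 were chosen after their values were seen. Promoter sequence is from RefSeq (GRCm38.p6), 250 bases before each start.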

Additional observations from a re-analysis of the deposited data

How the results depend on the processing

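The number of calls depended strongly on processing, while the 8 called genes kept their direction in every alternative that tested them. Other signs did change: 19 of the 40 list medians differed in sign between the fits without either day 14 library. The 8 genes called between days 14 and 28 were also called, and were alone, with RLE scaling or cuffdiff scaling in place of TMM. Among the 7884 genes with a mean of at least 5 FPKM at day 14 or at day 28, 6 were called. These were the same genes without Fcrl5 and Trpm2, which that filter drops. DESeq2 gave 332 genes, no expression filter 390, and an adjusted p under 0.1 gave 114, all 3 times including the 8. Neither limma on log2(FPKM + 1) nor on log2(FPKM + 0.1) called a gene (0 and 0, with 1665 and 1570 at an unadjusted p under 0.05), and edgeR on only the 4 libraries of days 14 and 28 called 0 (1009). With single libraries left out the count ran from 0 to 629, and the lone library of a day is then assumed to vary like those of the other days. The stringent DE genes numbered 6 in the fit reported, 120 with DESeq2, 149 without a filter, 0 with both limma settings, 0 with only the 4 libraries, and 0 to 321 with single libraries left out; with an FPKM minimum of 1 or 10 they were 8 and 4. Why the tests differ in number was not tested.

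The stable genes were 8589 in the fit reported, 7429 to 8312 with a library of day 14 or 28 left out, 8153 with only the 4 libraries and 11730 with limma on log2(FPKM + 1), where the pseudocount shrinks changes at low levels. With a bound of 0.58 there were 4942, since fewer intervals fit inside a narrower one. Of the list medians under other scalings, filters and left-out libraries, 245 values stayed within the spread between replicates and 35 moved by more.

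Replicate numbers are shared between days, but same-numbered libraries come from different mice. With the number as a replicate block, 0 genes were called, 0 were stringent and 8338 were stable. Deviations from the day mean in libraries of the same number correlated with r = 0.111 (days 5 and 14), 0.0542 (days 5 and 28) and -0.0540 (days 14 and 28) over 7613 genes. At days 14 and 28 the deviations of both libraries mirror each other, so these values cannot decide whether same-numbered libraries share a batch.

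Among the genes whose values are given, no called gene changed sign. Genes not called whose log2 fold change did so with a library left out, with the range over single libraries left out, were Abhd5 -0.034 to 0.26, Alox15 -1.62 to 0.23, Ccl2 -1.21 to 0.60, Ccl7 -1.37 to 0.71, Cd14 -0.19 to 0.17, Cd44 -0.11 to 0.18, Chi3l3 -0.27 to 1.68, Chst12 -0.31 to 0.20, Ctss -0.27 to 0.10, Cx3cl1 -0.58 to 1.81, Cxcr4 -0.045 to 0.065, Fcgr3 -0.10 to 0.028, Gapdh -0.22 to 0.10, Hilpda -0.20 to 0.092, Hmga1 -0.39 to 0.032, Hspa5 -0.15 to 0.014, Ifi205 -1.72 to 0.79, Ifit1 -1.42 to 0.074, Il1a -0.26 to 0.54, Il1rn -0.35 to 0.80, Itgam -0.069 to 0.39, Lyz2 -0.35 to 0.18, Myc -0.52 to 0.28, Pkm -0.14 to 0.019, Psmb6 -0.13 to 0.22, Retnla -0.79 to 0.33, Rsad2 -1.31 to 0.71, Tmsb4x -0.19 to 0.31, Tnf -0.072 to 0.32, Trem2 -0.10 to 0.016 and Vcan -0.066 to 0.32. In each, the library left out makes the difference, and why it differs was not tested.

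With 2 libraries a day, unlike ones at day 14, a gene that was not called is not thereby unchanged, and an interval within 2-fold can still hide a smaller change. Few genes under 1 FPKM are in the stable set. Day and any batch of harvest, sort or sequencing cannot be told apart, since no batch is given.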
